A study of Mus musculus with 12 samples.

Results

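The comparison described here is between 3 libraries labelled PPARγ knockout and 3 Cre control libraries of mouse macrophages after stimulation with palmitate plus LPS, 6 of the 12 libraries of the series. The cells were peritoneal macrophages recruited by an injection of thioglycolate, collected 4 days later, plated, and exposed the next day for 8 h. Both stimulated groups received 250 uM palmitate, a saturated fatty acid, and 100 ng/ml LPS, a cell wall lipid of Gram-negative bacteria. The other 6 libraries, 3 of each genotype, received BSA in PBS as vehicle and serve as the unstimulated reference. The controls are labelled LysM-Cre, a Cre recombinase expressed from a myeloid gene, and the knockouts LysM-PPARg, so both genotypes are named by the same driver. Whether the controls also carried unrecombined PPARγ alleles is not given in the sources used here. The labels give neither the age, sex and strain of the mice nor whether replicates came from separate animals, so p-values measure the spread between these libraries.

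PPARγ is a nuclear receptor that binds fatty acid derivatives, pairs with RXR and switches on genes of lipid uptake and storage, and in macrophages it also restrains parts of the inflammatory response. LPS acts through TLR4 along an arm that drives NF-kB and early cytokines such as interleukin-1β and an arm that, through TRIF and IRF3, induces interferon-β. Secreted interferon-β then signals through its receptor, STAT2 and IRF9 to a large set of antiviral and antigen-presentation genes. The title of the series names type I interferon and the release of both interleukin-1 forms as the subject of the comparison.

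The 6 stimulated libraries held 20072758 to 21872324 counts each. The first principal component of their log2 CPM, with 56.0% of the variance, placed the 3 control libraries on 1 side and the 3 labelled knockouts on the other. Pparg (GRCm38, chr6:115361221-115490401, plus strand), the gene named by the label, did not follow it. It stood at 3.59, 2.84 and 4.15 CPM (counts relative to library size, scaled by TMM) in the stimulated controls and at 3.53, 5.001 and 4.69 CPM in the labelled knockouts. The 2 ranges overlapped, and the log2 difference of 0.33 ± 0.18 (SE, n = 3 per group) did not pass the threshold (edgeR quasi-likelihood adjusted p = 0.179). The stimulated libraries held 53 to 93 Pparg counts each, against 1207 to 1669 in the vehicle controls and 2125 to 2326 in the vehicle labelled knockouts. Counts over a whole gene include exons outside a deleted part, so these values do not check the deletion, and each direction below rests on the labels. Of 10 macrophage markers, summing to 7053 to 7986 CPM in controls and 7547 to 7745 CPM in the labelled knockouts, 5 were higher and 2 lower (3 higher without the labelled knockout replicate 3). The 2 lower were Cd14 and Lyz2, the gene whose promoter drives the Cre. Lyz2 stood at 105, 119.5 and 114 CPM in controls and at 88.9, 80.2 and 80.8 CPM in the labelled knockouts (log2 difference -0.43 ± 0.07, edgeR adjusted p = 5.35e-05).

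After stimulation the genotypes differed at many genes by small amounts. Of 11743 genes tested, 3811 passed an adjusted p of 0.05, or 32.5%, with 2103 (17.9%) higher and 1708 (14.5%) lower in the labelled knockouts. When libraries were scaled by their total count instead of TMM, 1480 were higher and 2514 lower, which moved the share of higher calls from 55.2% to 37.1%. Of the 3811, 65% differed by less than 0.5 on the log2 scale. A difference of at least 1 was called higher for 229 genes (1.95%) and lower for 71 (0.605%). Counts of list members below are read against these shares. The libraries of the 2 groups did not overlap for 5235 genes, or 44.6%. Both of the 2 chromosome Y genes tested were called, with a median log2 difference of 3.76 (labelled knockout minus control). Over the 373 genes tested on chromosome X the median was -0.02. The labels do not give the sex of the mice, and whether the groups differed in it was not tested. A difference in sex that ran with genotype could not be told apart from genotype in these libraries, at these or other genes. In the vehicle libraries the same test called 229 of 12422 genes (1.84%), 114 higher and 115 lower. That count was 963 without the vehicle library labelled knockout replicate 1, which stood apart from its 2 partners.

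**Figure D1:**
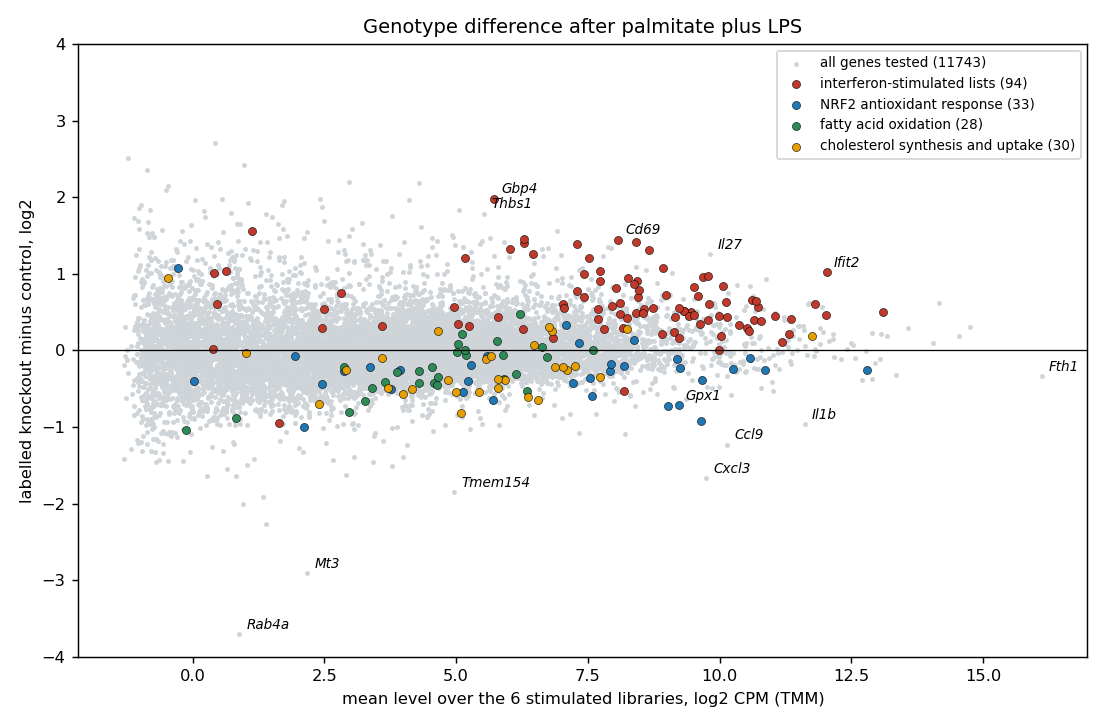
Genotype difference (labelled knockout minus control, log2) against the mean level over the 6 stimulated libraries (log2 CPM) for the 11743 genes tested, with 1 gene beyond the axis. Most interferon-stimulated genes (red; 86 of 94 called higher) lie above 0, while most genes of the NRF2, fatty acid oxidation and cholesterol lists lie below it.

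Short DNA motifs before the start sites of the interferon-stimulated genes and of 2 CXC chemokine genes are shown first. Most of the interferon-stimulated genes were higher in the labelled knockouts. The 2 chemokine genes were chosen among the lower members of a list that went both ways, with 6 of 15 higher and 3 lower. The interferon-stimulated response element is the site of the complex with STAT2 and IRF9 and of other IRFs. It was searched as GAAANNGAA on both strands, and the kB site of NF-kB as GGGNNTTTC. Of 8989 tested genes with a RefSeq promoter window (GRCm38.p6, 250 bases before to 50 after the start), 9.14% held the first motif and 5.13% the second. Among genes of the 4 interferon-stimulated lists described below, 46 of 75 (61.3%) held the first. Among the CXC chemokines and receptors, 5 of 11 (45.5%) held the second and 3 (27.3%) the first. The AP-1 motif TGANTCA, searched as well, was in 16 of the 75 interferon-stimulated genes (21.3%), against 6.42% of all tested genes. Below, the 250 bases before the start are written in the direction of the gene, with matches in capitals. For Rsad2, Oas3, Gbp2 and Ifi208, higher in the labelled knockouts, they mark the interferon-stimulated response element, which in Oas3 occurs as 2 overlapping matches.
Rsad2 (chr12:26456453-26456702, minus strand): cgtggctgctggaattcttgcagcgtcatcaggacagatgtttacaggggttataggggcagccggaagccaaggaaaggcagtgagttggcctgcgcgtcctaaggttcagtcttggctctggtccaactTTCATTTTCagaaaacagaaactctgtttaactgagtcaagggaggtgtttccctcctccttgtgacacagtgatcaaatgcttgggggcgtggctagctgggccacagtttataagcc
Oas3 (chr5:120777660-120777909, minus strand): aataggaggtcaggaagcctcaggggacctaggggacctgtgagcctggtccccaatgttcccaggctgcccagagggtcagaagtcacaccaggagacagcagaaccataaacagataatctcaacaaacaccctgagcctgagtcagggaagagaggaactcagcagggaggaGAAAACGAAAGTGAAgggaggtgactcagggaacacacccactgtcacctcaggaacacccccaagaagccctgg
Gbp2 (chr3:142620413-142620662, plus strand): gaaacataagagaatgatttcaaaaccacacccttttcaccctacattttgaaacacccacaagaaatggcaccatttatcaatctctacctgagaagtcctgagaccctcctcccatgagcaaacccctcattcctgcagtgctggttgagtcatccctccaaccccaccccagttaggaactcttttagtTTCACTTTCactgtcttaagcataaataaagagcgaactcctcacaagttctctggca
Ifi208 (chr1:173673415-173673664, plus strand): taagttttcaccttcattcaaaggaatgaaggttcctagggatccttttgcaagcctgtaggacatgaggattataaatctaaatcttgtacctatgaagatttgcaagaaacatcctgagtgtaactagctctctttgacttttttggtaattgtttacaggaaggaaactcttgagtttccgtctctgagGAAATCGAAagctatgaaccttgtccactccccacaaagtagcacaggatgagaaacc

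Cxcl3 and Cxcl2 encode neutrophil attractants, lie on the same chromosome and were lower in the labelled knockouts. Their capitals mark the kB site, once in Cxcl3 and 2 times in Cxcl2.
Cxcl3 (chr5:90785851-90786100, plus strand): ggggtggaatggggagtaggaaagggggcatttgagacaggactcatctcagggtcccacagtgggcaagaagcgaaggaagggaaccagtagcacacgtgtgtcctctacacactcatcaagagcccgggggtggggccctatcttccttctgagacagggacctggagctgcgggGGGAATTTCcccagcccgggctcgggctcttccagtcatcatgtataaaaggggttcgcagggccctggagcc
Cxcl2 (chr5:90903649-90903898, plus strand): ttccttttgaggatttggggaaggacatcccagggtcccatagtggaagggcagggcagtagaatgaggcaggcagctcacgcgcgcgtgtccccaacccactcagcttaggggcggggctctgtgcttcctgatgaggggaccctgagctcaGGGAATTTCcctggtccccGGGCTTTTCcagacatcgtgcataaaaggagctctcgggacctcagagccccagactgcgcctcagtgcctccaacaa
A match is a stretch of letters and was not measured as a bound site. Over all genes called higher, 13.5% held the interferon-stimulated response element, and over all genes called lower 6.64%. The kB motif was also in a larger share of the genes called higher (6.38%) than of those called lower (4.18%). In other lists, 9 of 28 NRF2 genes (32.1%) held the antioxidant response element TGACNNNGC, against 17.2% of all tested genes. The sterol regulatory element TCACNCCAC was in 1 of 21 cholesterol genes (1.37% of all genes), and a direct repeat of AGGNCA spaced by 1 base, the binding site of PPARγ with RXR, was in 0 of 15 PPAR-driven genes (0.289% of all genes).

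The first step of the interferon pathway differed at the ligand itself. Ifnb1, the interferon-β gene, was counted 7, 8 and 9 times in controls and 23, 28 and 40 times in the labelled knockouts. Every labelled knockout library was above every control. The summed counts, 24 against 91, gave a ratio per total count of 3.74 with an exact 95% interval of 2.36 to 6.13. That interval covers counting error only and not the spread between libraries, and an edgeR test of Ifnb1 is not reported here. Of 21 genes of interferon induction, among them sensors, adaptors, kinases and transcription factors, 13 were higher and 1 lower. Their median log2 difference was 0.29, against -0.01 over all genes. Tlr3, the endosomal receptor of double-stranded RNA, stood at 32.9, 31.5 and 33.6 CPM in controls and at 95.8, 74.5 and 91.3 CPM in the labelled knockouts (1.42 ± 0.09, edgeR adjusted p = 3.46e-09). The cytosolic RNA sensor gene Ifih1 differed by 0.71 ± 0.06, and the transcription factor genes Irf7 and Irf5 both by 0.62 ± 0.06. The lower member was Ticam2 (-0.27 ± 0.09), the adaptor that links TLR4 to TRIF, and its call was lost without control replicate 3 (edgeR adjusted p = 0.137) or the labelled knockout replicates 1 (adjusted p = 0.105) or 3 (adjusted p = 0.113), and in a fit of all 12 libraries together (adjusted p = 0.0812).

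Downstream of the receptor, 14 of 22 signalling and feedback genes were higher and 2 lower (median 0.30). Stat2, a transcription factor of the interferon response, stood at 424, 345 and 377 CPM in controls against 625, 612 and 652 CPM (0.72 ± 0.07). Usp18, which restrains the interferon receptor, had 2466, 2759 and 2572 CPM against 3967, 3872 and 4034 CPM (0.61 ± 0.06). Neither gene's ranges overlapped. Lower were Ifngr1 and Socs3, the latter a brake on cytokine receptors that differed by -0.50 ± 0.09 (edgeR adjusted p = 0.00113).

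Among the interferon-stimulated effectors most genes were higher. In 4 lists joined into 1, 86 of 94 genes tested were higher, 0 were lower and 8 were not called, with a median of 0.55. The differences ranged from -0.95, at a member of the IFIT, OAS and MX list that was not called, to 1.98. In vehicle 1 of 87 was higher and 0 lower (median 0.18), or 13 higher and 2 lower without the vehicle library labelled knockout replicate 1. Their summed level was 55650, 61020 and 58820 CPM in the control libraries and 86740, 81890 and 84010 CPM in the labelled knockouts, against 3286 to 4088 CPM in the 6 vehicle libraries. Across the settings tried, 78 to 86 of them were called higher and at most 2 lower.

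By family, 22 of 27 IFIT, OAS and MX genes were higher, and the 5 not called included 4 interferon-induced transmembrane genes (Ifitm1, Ifitm2, Ifitm3 and Ifitm6), named after their values were seen. Ifit2, whose protein binds viral RNA and restrains translation, stood at 2738, 2791 and 2789.9 CPM in controls and at 6001, 5240.4 and 5637 CPM in the labelled knockouts. The control libraries lay close together, and every labelled knockout library was above them (1.02 ± 0.06, edgeR adjusted p = 8.78e-10). Rsad2, which encodes viperin, was the most abundant antiviral gene named here, with 6674, 7815 and 7286 CPM against 10802, 9974 and 10020.4 CPM (0.50 ± 0.07). Mx1, an antiviral GTPase gene, differed by 0.97 ± 0.06, the exonuclease gene Isg20 by 1.08 ± 0.07 and Oas3, an oligoadenylate synthetase that senses double-stranded RNA, by 0.83 ± 0.06. Ifit3b differed by 1.21 ± 0.07, but it has a near-identical copy in Ifit3, and how reads shared between copies were counted is not given in the sources used here. The same holds for the GBP, PYHIN, Schlafen and H2-Q genes below.

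Of 16 guanylate-binding proteins and immunity-related GTPases, which attack vacuoles that hold pathogens, 15 were higher and 0 lower. Gbp4 had 19.4, 22.6 and 21.8 CPM in controls against 89.3, 76.6 and 85.3 CPM, the largest rise of any interferon-stimulated gene named (1.98 ± 0.08, edgeR adjusted p = 9.45e-12). The far more abundant Gbp2 stood at 2756, 2885 and 2917 CPM against 4400.5, 4218 and 4319 CPM (0.60 ± 0.06). Gbp9 differed by 1.41 ± 0.06. In the Schlafen and PYHIN families 18 of 19 were higher, among them the PYHIN genes Ifi208 (1.453 ± 0.07) and Ifi213 (1.39 ± 0.07) and Slfn8 (0.87 ± 0.06). Of 35 other interferon-stimulated genes 34 were higher. Cd69, a lymphocyte and myeloid activation antigen, had 137, 157 and 142 CPM in controls against 416, 364 and 403 CPM (1.44 ± 0.07), and Ms4a4c differed by 1.41 ± 0.11.

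**Figure D2:**
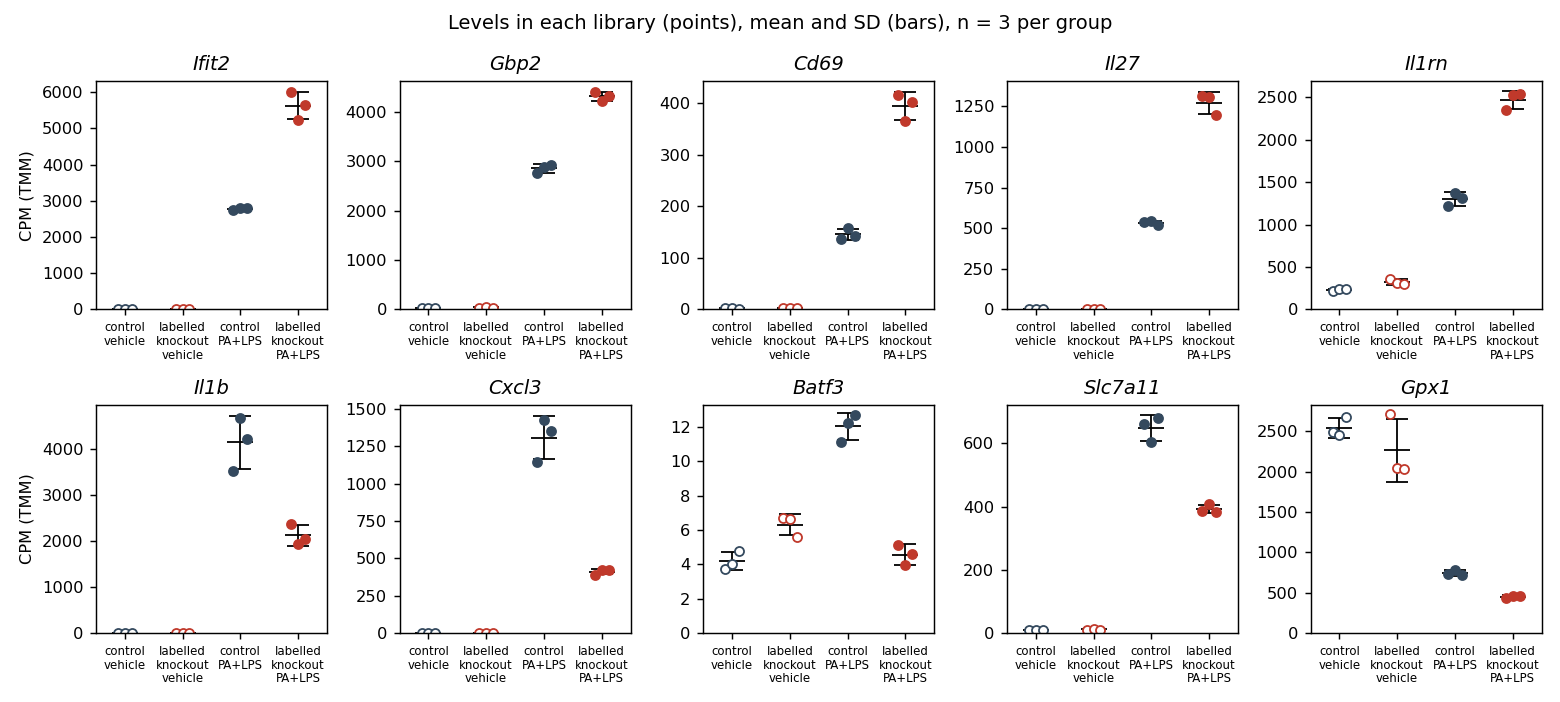
Level of 10 genes in each of the 12 libraries (points, CPM scaled by TMM), with mean and SD (n = 3) for the 4 groups; PA+LPS is palmitate plus LPS. Ifit2, Gbp2, Cd69, Il27 and Il1rn are higher, and Il1b, Cxcl3, Batf3, Slc7a11 and Gpx1 lower, in each stimulated labelled knockout library than in any stimulated control.

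Most MHC class I genes were higher too. Of 25 MHC class I and immunoproteasome genes 19 were higher, and 1, the chaperone gene Calr (-0.21 ± 0.06), was lower. The call of Calr was lost without control replicate 3 (edgeR adjusted p = 0.0653) or the labelled knockout replicate 3 (adjusted p = 0.0503), and in the 12-library fit (adjusted p = 0.0969). H2-D1, a classical class I heavy chain, stood at 10735, 11203 and 10913 CPM in controls and 13301, 13576 and 13293 CPM in the labelled knockouts (0.29 ± 0.06). The class I transactivator gene Nlrc5 differed by 0.72 ± 0.06 and H2-Q6 by 1.14 ± 0.06. For MHC class II, 4 of 10 genes were higher and 0 lower, including Cd74, the invariant chain (0.48 ± 0.09), and 7 were higher after adjusting for gene length. Cd86, a ligand that costimulates T cells, rose from 126, 142 and 135 CPM in controls to 356, 326 and 339 CPM (1.35 ± 0.06), in a list where 6 of 16 costimulatory and checkpoint ligands were higher and 3 lower. The lower count was 0 without the labelled knockout replicate 3, and 1 without control replicate 3 or in the 12-library fit.

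In the interleukin-1 family 4 of 11 genes rose, 3 fell and the remaining 4 did not pass, and without the labelled knockout replicate 2 the higher count was 7. The 3 lower genes encode agonists, and the 4 higher ones a receptor antagonist, a binding protein and the receptor chains Il1rl1 and Il1rap, the latter named after its values were seen. Il1b (chr2:129364570-129371139, minus strand) stood at 3525, 4679.7 and 4217 CPM in controls and at 2376, 1944 and 2042 CPM in the labelled knockouts. Each labelled knockout library was below each control, and the difference was -0.96 ± 0.11 (edgeR adjusted p = 2.79e-04). Il1a (chr2:129299610-129309972, minus strand) fell by less, from 7209, 7721 and 7880.3 CPM to 6109, 5728 and 5537 CPM (-0.39 ± 0.06, edgeR adjusted p = 7.85e-05). The third agonist was Il1f9, which encodes interleukin-36γ, with 13.2, 17.3 and 16.7 CPM against 5.26, 5.81 and 5.996 CPM (-1.46 ± 0.12).

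Il1rn, the antagonist that occupies the interleukin-1 receptor without signalling, moved the other way. It had 1218, 1374 and 1312 CPM in controls and 2346, 2523 and 2536 CPM in the labelled knockouts (0.93 ± 0.06, edgeR adjusted p = 1.69e-09). Its mean in controls, 1301 CPM, was below that of Il1b, 4140.4 CPM, whereas in the labelled knockouts it was 2468 against 2120.5 CPM; these are levels per library and not per length. Il18bp, which neutralises interleukin-18, had 26.4, 28.0 and 25.3 CPM against 67.2, 76.2 and 76.0 CPM (1.46 ± 0.07). Il18 itself had 84.3, 108 and 96.9 CPM against 107, 99.7 and 109 CPM, ranges that overlapped (0.13 ± 0.08, edgeR adjusted p = 0.203). Adjusting the counts for a trend with gene length, or leaving out control replicate 2, brought Il18 past the threshold as higher (0.32 and 0.22, adjusted p = 5.53e-04 and 0.0203).

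Genes that mature and release interleukin-1 were more often higher. Of 21 inflammasome and pyroptosis genes, 10 were higher and 1 lower. Nlrp3, the sensor that assembles with caspase-1, stood at 91.3, 72.1 and 84.5 CPM in controls and 126, 129 and 114 CPM in the labelled knockouts (0.57 ± 0.08). Gsdmd, the pore-forming gasdermin, differed by 0.40 ± 0.06, Mefv, which encodes pyrin, by 1.11 ± 0.11 and P2rx7, the ATP-gated channel, by 0.84 ± 0.08. Casp1, the protease that cleaves pro-interleukin-1β, had 388, 459 and 447 CPM against 442, 414 and 434 CPM, and its log2 difference was smaller than its SE of 0.06 (edgeR adjusted p = 0.997).

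Chemokine genes went both ways, with 6 of 15 CXC chemokines and receptors higher and 3 lower, and 4 of 16 CC chemokines and receptors higher and 3 lower. The higher CXC count was 3 without control replicate 3 or the labelled knockout replicate 1, and the lower CC count was 5 without control replicate 1. The neutrophil attractants Cxcl1, Cxcl2 and Cxcl3, which act on CXCR2, were lower. Cxcl3 had 1145, 1429 and 1354 CPM in controls and 389.7, 421 and 421 CPM in the labelled knockouts (-1.67 ± 0.07, edgeR adjusted p = 3.03e-11). Cxcl2 was lower by a smaller amount, with 8457, 8204 and 9209 CPM against 6666, 7239 and 6037 CPM (-0.37 ± 0.07). Cxcl1 fell by 0.24 ± 0.06, a call lost without control replicate 3 (edgeR adjusted p = 0.0578) or the labelled knockout replicate 3 (adjusted p = 0.0621), after adjusting for gene length (-0.07, adjusted p = 0.395) and in the 12-library fit (adjusted p = 0.078). The libraries of the groups also lay apart at Ccl9, a CC chemokine gene with 1380.3, 1738 and 1644 CPM against 662, 654 and 709.8 CPM (-1.23 ± 0.07). Cxcl9, an interferon-inducible ligand of CXCR3, was higher, at 11.8, 11.7 and 10.5 CPM against 27.8, 18.4 and 22.8 CPM (1.03 ± 0.14). Cxcl10, named after its values were seen, had 729, 1171 and 876 CPM against 1841, 1434 and 1708 CPM. Its call (0.85 ± 0.22, edgeR adjusted p = 0.0437) was lost when any 1 library other than control replicate 2 was left out, with adjusted p from 0.0544 to 0.13.

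Cytokines of the interleukin-12 family differed in their subunits. Il27, the p28 subunit of interleukin-27, had 539.5, 542 and 517 CPM in controls and 1310.3, 1310.0 and 1194 CPM in the labelled knockouts (1.26 ± 0.06, edgeR adjusted p = 3.03e-11). Il12b, the p40 subunit shared by interleukin-12 and interleukin-23 and named after its values were seen, was higher by 0.83 ± 0.11. Il23a, the p19 subunit that makes interleukin-23, was the 1 lower member, with 20.1, 26.3 and 24.7 CPM against 11.7, 8.76 and 9.65 CPM (-1.24 ± 0.12). Of the 19 genes of this list, which also holds the interleukin-6 and interleukin-10 families and interleukin-15, 11 were higher. Il15 differed by 0.56 ± 0.06.

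Other LPS-induced genes did not move as a block. Tnf had 2278, 2244 and 2387 CPM in controls and 2549.5, 2667 and 2290.5 CPM in the labelled knockouts, and Il6 690.4, 704 and 728 CPM against 743, 811 and 734 CPM. The ranges of Tnf overlapped and those of Il6 did not. Neither passed the threshold (Tnf 0.12 ± 0.06, edgeR adjusted p = 0.14; Il6 0.11 ± 0.06, adjusted p = 0.137), although both did as higher after adjusting for gene length (0.24 and 0.28, adjusted p = 0.0039 and 7.80e-04). Acod1, the enzyme that makes itaconate, named after its values were seen, differed by 0.05 ± 0.06 (adjusted p = 0.589). Nos2, the inducible nitric oxide synthase, rose from 222, 221 and 214 CPM in controls to 477, 439 and 480.2 CPM (1.09 ± 0.06), and Arg2, which competes for the same substrate, fell by 0.48 ± 0.06. In prostaglandin synthesis Ptgs2, the inducible cyclooxygenase, was higher (0.56 ± 0.07) and Ptges, the next enzyme toward prostaglandin E2, lower (-0.60 ± 0.06). The ligand gene Tnfsf10, which encodes TRAIL, differed by 1.43 ± 0.09.

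Receptors and brakes of the LPS pathway went both ways, with 10 of 23 Toll-like receptor and co-receptor genes higher and 6 lower. The lower count was 2 without control replicate 3 or the labelled knockout replicate 3, 3 without the labelled knockout replicate 1 and 2 in the 12-library fit. Cd14, which hands LPS to TLR4, had 1887, 2229.9 and 2118 CPM in controls and 1470.4, 1419 and 1539.7 CPM in the labelled knockouts (-0.49 ± 0.06). Cd180, a TLR4-like receptor that tempers LPS responses, had 77.8, 74.8 and 77.2 CPM against 162, 157 and 163 CPM (1.07 ± 0.06). Tnfaip3, which encodes the ubiquitin editor A20 that limits NF-kB, was higher by 0.58 ± 0.08, and Zc3h12a, an RNase that degrades cytokine mRNAs, lower (-0.53 ± 0.07). The transcription factor gene Batf3 was lower, with 11.1, 12.2 and 12.7 CPM against 5.14, 3.98 and 4.59 CPM (-1.39 ± 0.13). Dusp1, the phosphatase that ends MAP kinase signalling, had 17.9, 10.5 and 9.02 CPM against 25.1, 36.9 and 41.0 CPM. Its call (1.47 ± 0.35, edgeR adjusted p = 0.0359) was lost without control replicate 2 or 3 or the labelled knockout replicate 2 or 3, with adjusted p from 0.0733 to 0.124, and in the 12-library fit (adjusted p = 0.0574).

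Genes known to be driven by PPARs were lower in part. Of 23, 8 were lower and 2 higher after stimulation, with a median of 0.00, and in vehicle 8 were lower and 0 higher, or 14 and 0 without the vehicle library labelled knockout replicate 1. Cd36, the fatty acid and oxidised lipoprotein receptor, had 1074, 1003 and 1073 CPM in controls and 534, 540.0 and 589.9 CPM in the labelled knockouts (-0.92 ± 0.06, edgeR adjusted p = 1.59e-09). Lpl, which releases fatty acids from lipoproteins, had 2291, 2620.0 and 2473 CPM against 1646, 1683 and 1754 CPM (-0.54 ± 0.06). Also lower were the lipoprotein receptor gene Olr1 (-0.96 ± 0.08), the monoglyceride lipase gene Mgll (-0.92 ± 0.10) and the sorting receptor gene Sort1 (-2.27 ± 0.24). The 2 higher members were Cpt1a, the carnitine transferase that admits fatty acids to mitochondria (0.47 ± 0.06), and Angptl4, an inhibitor of lipoprotein lipase (0.59 ± 0.12). After adjusting for gene length 4 members were higher. Of 18 genes of LXR-driven cholesterol efflux 7 were higher and 4 lower (median -0.02), with 4 higher without control replicate 3 or the labelled knockout replicate 1 and in the 12-library fit. Abcg1, a cholesterol exporter, was among the lower ones (-0.57 ± 0.10).

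Fatty acid oxidation and cholesterol synthesis genes were more often lower than higher, while other lipid enzyme lists were mixed. Of 28 fatty acid oxidation genes 15 were lower and 2 higher (median -0.28); Echs1, the second enzyme of the cycle, had 88.4, 105 and 95.7 CPM in controls against 68.4, 63.9 and 66.9 CPM (-0.54 ± 0.07). Of 30 genes of cholesterol synthesis and uptake 18 were lower and 5 higher (median -0.26). The mevalonate pathway genes Pmvk, with 38.2, 49.1 and 42.4 CPM against 26.6, 21.99 and 25.1 CPM (-0.81 ± 0.10), Fdps (-0.65 ± 0.07) and Mvd (-0.60 ± 0.06) were among the lower members. In the fit of all 12 libraries 15 members were lower and 0 higher, and 3 were higher without control replicate 3 or the labelled knockout replicate 1. Of 19 genes of triglyceride synthesis and lipolysis 7 were lower and 4 higher, of 26 of sphingolipid synthesis 8 and 5, and of 21 of fatty acid synthesis and desaturation 5 and 1. Without control replicate 3 these counts of lower genes were 6, 5 and 3.

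The antioxidant programme of the transcription factor NRF2 was lower, with 21 of 33 genes lower and 2 higher (median -0.26). In the 12-library fit 12 were lower and 1 higher. Slc7a11, the cystine importer that feeds glutathione synthesis, had 662, 603 and 679 CPM in controls and 385, 407 and 384 CPM in the labelled knockouts (-0.72 ± 0.06, edgeR adjusted p = 2.86e-08). Gpx1, the glutathione peroxidase, had 728, 787 and 715 CPM against 429, 461 and 465 CPM (-0.72 ± 0.06). The haem oxygenase gene Hmox1 (-0.39 ± 0.06) and the peroxiredoxin gene Prdx1 (-0.26 ± 0.06) were lower too. Keap1, the repressor of NRF2, was 1 of the 2 higher members (0.34 ± 0.06).

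Iron and metallothionein genes went both ways, with 6 of 23 higher and 7 lower (median -0.06). Fth1, the ferritin heavy chain and the most abundant mRNA of the stimulated libraries, had 71976, 84497 and 81056 CPM in controls and 64213, 62728 and 60409 CPM in the labelled knockouts (-0.34 ± 0.07, edgeR adjusted p = 7.97e-04). The calls of Prdx1 and Fth1 were lost in the 12-library fit (adjusted p = 0.146 and 0.0822). The light chain gene Ftl1 (-0.41 ± 0.06) and the metallothionein gene Mt3 (-2.91 ± 0.20) were lower as well. Both ferritin genes have pseudogene copies that can share their reads.

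Mitochondrial and ribosomal genes were lower, alongside a trend with exon length. Of 35 nuclear-encoded oxidative phosphorylation genes 17 were lower and 0 higher (median -0.18), of 7 mitochondrially encoded genes 6 were lower, and of 33 ribosomal protein genes 19 were lower and 1 higher. In the 12-library fit these counts of lower genes were 0, 1 and 0, and without control replicate 3 the oxidative phosphorylation and ribosomal counts were 10 and 12, with 11 ribosomal genes without the labelled knockout replicate 3. Of 13 mitochondrially encoded genes, 5 (mt-Co2, mt-Atp8, mt-Atp6, mt-Co3 and mt-Nd4l) had 0 counts in all stimulated libraries, for a reason not tested. Examples of the lower genes are Ndufa4, a subunit of the respiratory chain (-0.41 ± 0.07; edgeR adjusted p = 0.0836 in the 12-library fit), and mt-Nd1, of complex I (-0.49 ± 0.06). The difference also ran with exon length over all genes, from a median of -0.16 in the 2349 shortest genes to 0.12 in the 2349 longest. Of the shortest 7.24% were higher and 26.0% lower, and of the longest 29.7% and 6.39%. In vehicle the difference ran the other way, from a median of 0.11 in the shortest to -0.05 in the longest. With counts adjusted for that trend 7 oxidative phosphorylation, 3 mitochondrially encoded and 11 ribosomal protein genes were lower. Under the same adjustment 85 of 94 interferon-stimulated genes were higher, and 15 fatty acid oxidation, 16 cholesterol and 18 NRF2 genes lower. Whether RNA quality or library preparation had a part in the length trend was not tested.

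**Figure D3:**
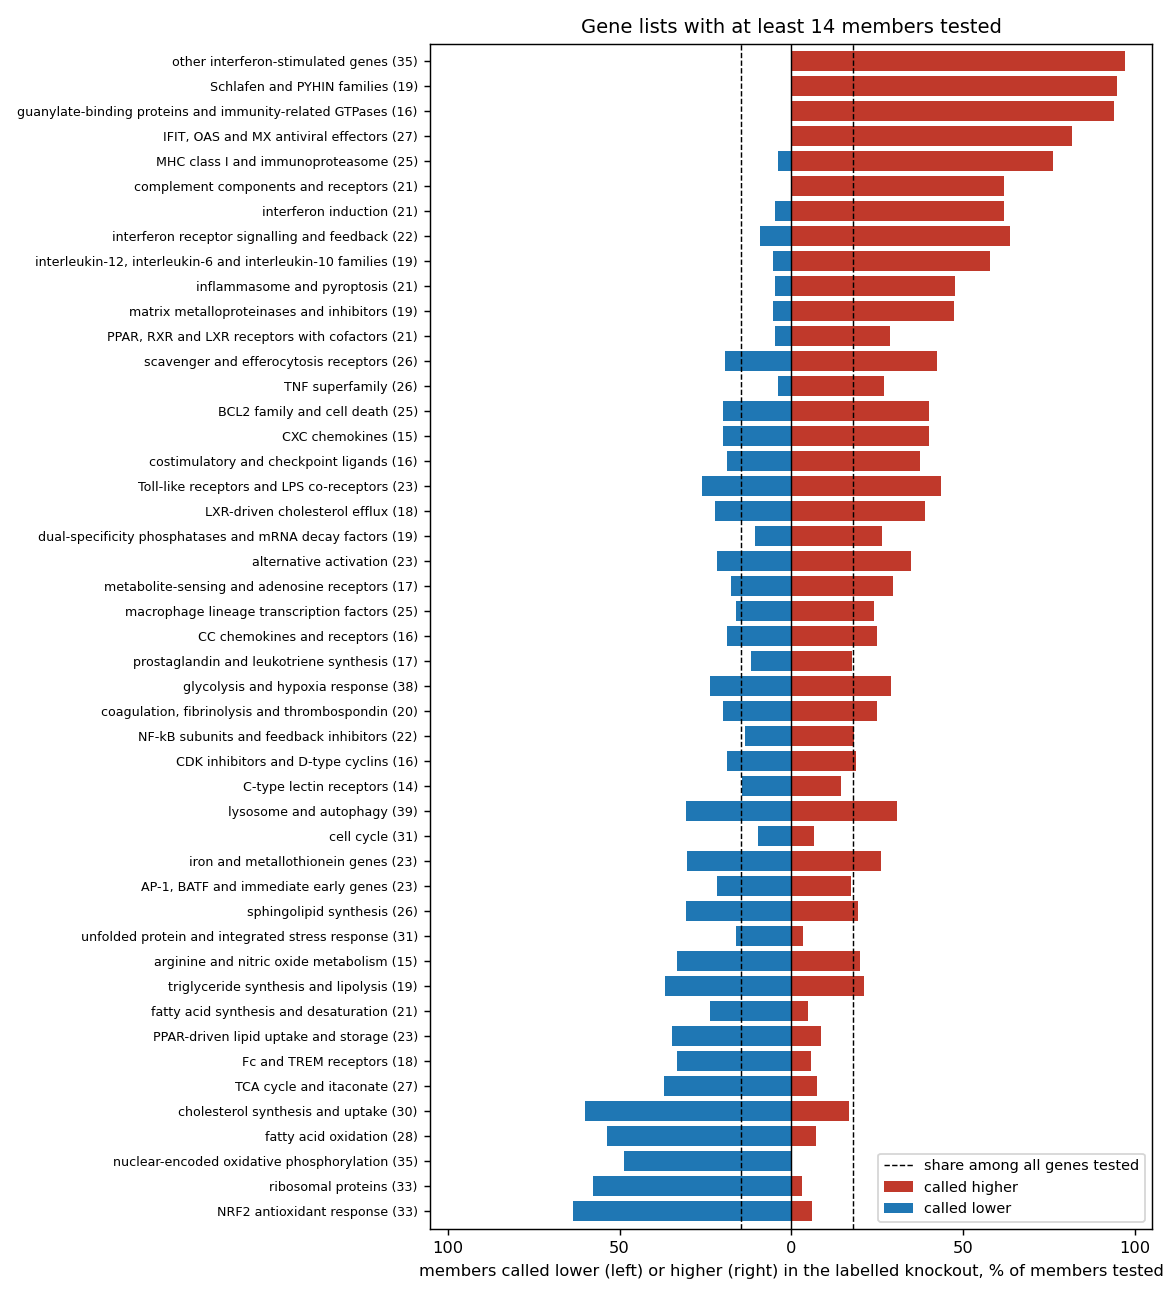
Percentage of tested members called higher (red, right) or lower (blue, left) in the labelled knockouts for the 47 gene lists with at least 14 members tested, number tested in brackets. Dashed lines mark the 17.9% and 14.5% of all genes; the interferon-stimulated lists reach furthest to the right, and the NRF2, cholesterol and ribosomal lists furthest to the left.

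Complement genes were mostly higher, and scavenger and efferocytosis receptors went both ways. Of 21 complement genes 13 were higher and 0 lower (median 0.26). C3, the central component, had 63.8, 53.5 and 53.3 CPM in controls and 150.1, 131 and 146 CPM in the labelled knockouts (1.32 ± 0.08), and the receptor gene C3ar1 differed by 1.00 ± 0.07. Of 26 scavenger and efferocytosis receptors and their ligands 11 were higher and 5 lower, the lower ones including Cd36 and Olr1 above. Axl, a receptor kinase that binds dying cells through GAS6 and is itself induced by interferon, had 109, 110.4 and 105 CPM against 253, 209.5 and 223 CPM (1.08 ± 0.07, edgeR adjusted p = 2.17e-09). The related receptor gene Mertk differed by 0.54 ± 0.09, the bridging protein gene Mfge8 by 0.57 ± 0.07 and Thbs1, a matrix protein that bridges dying cells to CD36, by 1.79 ± 0.12.

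Markers of other cells partly moved with genotype. Fibroblast and mesothelial markers summed to 224 to 244 CPM in the stimulated controls and to 512.9, 308.5 and 366.1 CPM in the labelled knockouts, with 8 of 13 higher and 1 lower. Leaving out 1 library at a time gave 2 to 9 higher: 6 without the labelled knockout replicate 1, and 4, 3 and 2 without control replicates 1, 2 and 3. Thbs1, which fibroblasts also express, and the complement genes lie beside this difference, and its part in them was not tested. Of the neutrophil markers S100a9, Ngp and Ly6g were at 0 counts in all 6 stimulated libraries, S100a8 was lower (-1.12 ± 0.13) and Mmp8 higher (1.18 ± 0.16). The summed neutrophil markers were 123 to 136 CPM in controls and 154 to 189 CPM in the labelled knockouts. Dendritic cell markers summed to 1058 to 1334 CPM in controls and 1458 to 1512 CPM in the labelled knockouts, nearly all from Bst2, which is itself interferon-induced and was named after its values were seen, with 1 of 5 higher and 1, Batf3, lower. Markers of small peritoneal macrophages and monocytes summed to 215.6 to 238.3 CPM against 307.6 to 359.1 CPM, with 3 of 7 higher and 0 lower, and in vehicle to 257.8 to 263.3 CPM against 322.6 to 339.2 CPM. The part of these markers in the MHC class II and interferon results was not tested. In bulk RNA, fewer cells of a type and less RNA per cell cannot be told apart.

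Of the 15 genes with the highest and the 15 with the lowest differences, 6 and 9 were on one of the lists, and several of both kinds are described here. Genes were ranked if their libraries did not overlap and the higher of the 2 means reached 10 CPM. Adra1a, an adrenergic receptor, had 2.70, 2.68 and 3.01 CPM in controls and 12.8, 13.2 and 12.3 CPM in the labelled knockouts (2.19 ± 0.13, edgeR adjusted p = 5.40e-10). Dio2, the deiodinase that activates thyroid hormone, differed by 1.96 ± 0.12, the ganglioside synthase gene St3gal5 by 1.83 ± 0.08 and the lectin-like receptor gene Klrk1, which encodes NKG2D, by 1.76 ± 0.11. On the lower side, Tmem154, a membrane protein gene, had 49.0, 47.3 and 50.4 CPM against 14.97, 13.3 and 12.4 CPM (-1.85 ± 0.08). The cell cycle inhibitor gene Cdkn1c (-1.68 ± 0.10), the tetraspanin gene Tspan7 (-1.39 ± 0.11), the growth factor gene Gdf3 (-1.18 ± 0.11) and F7, coagulation factor VII (-1.08 ± 0.06), were also lower. Rab4a, a small GTPase of recycling endosomes named after its values were seen and below the level rule, had 3.33, 3.91 and 3.01 CPM against 0.462, 0.269 and 0.0521 CPM (-3.71 ± 0.46). By absolute change, Actb, the cytoskeletal actin, rose from 13681, 14969 and 15172 CPM to 24536, 20637 and 21916 CPM (0.62 ± 0.07), Gpnmb by 0.30 ± 0.06 and Ctsb by 0.19 ± 0.06, while Ctsd fell by 0.32 ± 0.06. The call of Ctsb was lost without control replicate 3 (edgeR adjusted p = 0.0857) or the labelled knockout replicates 1 (adjusted p = 0.0633) or 3 (adjusted p = 0.0656), after adjusting for gene length (adjusted p = 0.0674) and in the 12-library fit (adjusted p = 0.118).

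Most of these differences were not called in vehicle, and for some genes the change between treatments was itself called. Of 11328 genes tested in both treatments, 113 were called in both, which is 3.07% of the stimulated calls and 55.4% of the vehicle calls; 96 had the same direction. Without the vehicle library labelled knockout replicate 1, 477 were called in both (12.9% and 53.1%), 395 in the same direction. The interaction, the genotype difference after stimulation minus that in vehicle, was called for 1039 of 12914 genes (8.05%) over all 12 libraries, and for 1752 without the vehicle library labelled knockout replicate 1. Of the 3811 genes called after stimulation it was called for 877. Of those called higher, the interaction was higher for 520 and lower for 6. Of those called lower, it was lower for 344 and higher for 7. A call after stimulation thus largely fixed the sign, so the lists are counted over all members tested. Among the 94 interferon-stimulated genes tested, 30 interactions were higher and 2 lower, and among the 33 NRF2 genes tested 1 was higher and 12 lower. Over the 11743 genes tested after stimulation, 596 were higher and 426 lower. Without that vehicle library the counts of the 2 lists were 40 and 1, and 1 and 14.

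The named genes fell into several patterns. Cxcl3, Il1b, Batf3 and Slc7a11 were lower only after stimulation by the calls, and their interactions were called (Cxcl3 -1.91, edgeR adjusted p = 4.31e-05). Cd36, Sort1, Rab4a, Mt3, Cdkn1c, Tspan7 and F7 were lower in both treatments with no interaction called; Cd36 differed by -0.90 in vehicle and -0.92 after stimulation. Lipid genes and Axl changed side or size: Angptl4 stood at 8.60 CPM in vehicle controls and 1.25 CPM in vehicle labelled knockouts (-2.78), but at 12.6 ± 0.907 and 18.9 ± 3.20 CPM after stimulation (0.59). Plin2, the lipid droplet coat gene named after its values were seen, went from -1.03 in vehicle to 0.10 after stimulation, and Axl from -0.85 to 1.08. Mgll was lower in both, at -2.07 and -0.92.

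**Figure D4:**
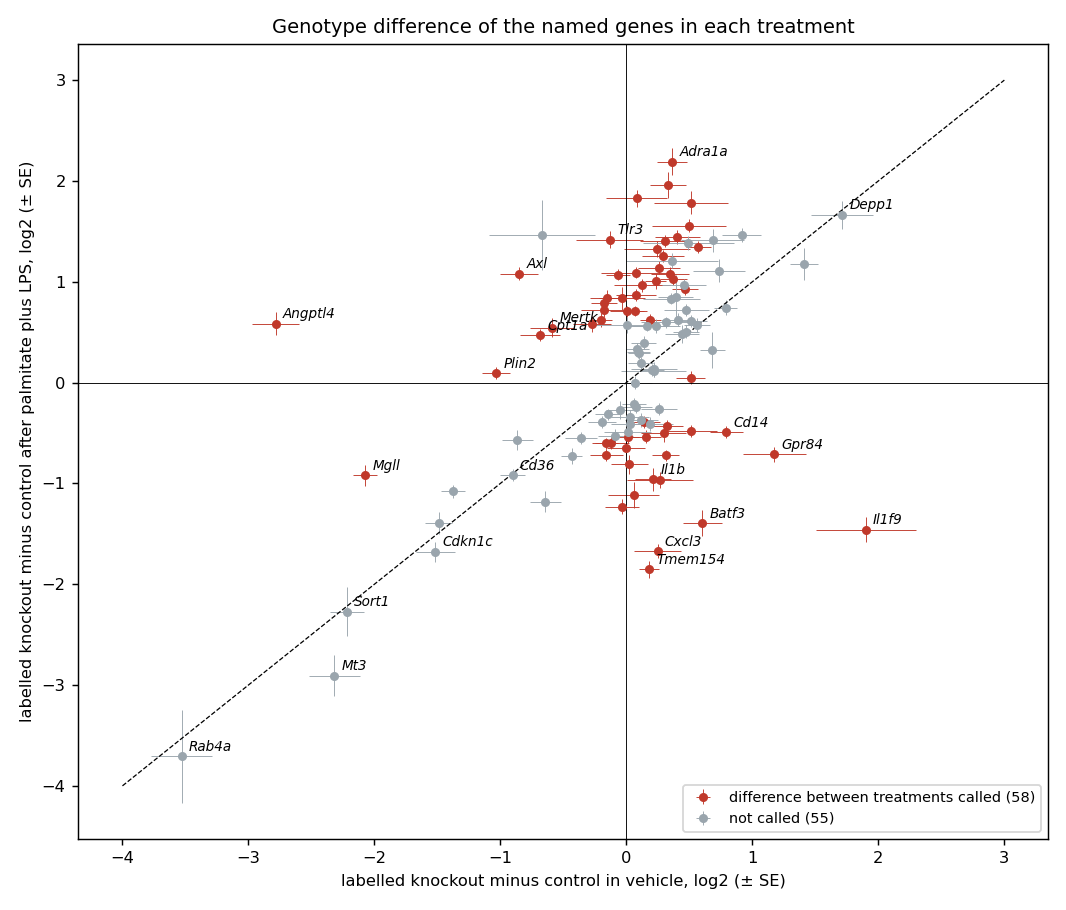
Genotype difference (labelled knockout minus control, log2 ± SE, n = 3 per group) after palmitate plus LPS against that in vehicle for 113 named genes tested in both, with the line of equal difference dashed. The interaction was called for the 58 red genes and not for the 55 grey ones; Cd36, Sort1 and Rab4a lie near the line, Cxcl3 and Tmem154 far below it and Angptl4 far above it.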

How the data were processed

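RNA sequencing libraries were made from total RNA with the SMARTer v1 kit, per the labels' protocols. Per the submitters' processing notes, reads were handled with bcl2fastq 2.0, STAR 2.0.4b, Subread and featureCounts 1.45 on GRCm38; no source used here gives the annotation or the strand setting, so reads of overlapping antisense genes cannot be told apart. The authors deposited, for 41388 genes per library, the raw count, CPM (per library total) and RPKM (per kilobase of exon); the deposited CPM and RPKM equalled values recomputed from the counts to rounding and entered no test. Each library was assigned by its title.

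Genes passing edgeR's filterByExpr held at least 99.78% of each library's counts. The 6 stimulated libraries were scaled by TMM and tested in edgeR 4.0.16 under R 4.3.3 by quasi-likelihood with robust dispersions, 1 mean per group, with Benjamini-Hochberg adjustment over all genes and a threshold of 0.05. The vehicle comparison used the 6 vehicle libraries and the interaction all 12. Levels are CPM scaled by TMM over 12 libraries. The fits were tested on simulated data. Alternatives were other scalings, filters, DESeq2 1.42.0, a replicate block, a 12-library fit, leaving out each library and, added after seeing the data, offsets for the trend with exon length.

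The comparison, the 54 pathway and 12 marker lists and the naming rule were chosen with earlier results of these data known. The rule took Pparg, Lyz2, Il1b, Il1a, Il1rn, Il18, Nlrp3, Casp1, Gsdmd, Ifnb1, Tnf, Il6 and Il10 (too few counts to test). It added as many as 15 called genes from each end of the ranked differences (at least 10 CPM, no overlap, no predicted genes), 10 each way by CPM, 6 per list by smallest p with 2 going against it, and 6 each way for the interaction. Fewer were named, and some are not reported here.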

Additional observations from a re-analysis of the deposited data

Results flagged for a closer look

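For 59 of the 120 named genes the genotype difference itself changed between vehicle and stimulation (edgeR quasi-likelihood test of the interaction over 12 libraries, adjusted p below 0.05). It was more positive after stimulation for 36 and more negative for 23; over all genes the interaction was called for 8.05%, and these genes were named in part for their stimulated difference, so the share is not a result about them. All 59 kept their call without the vehicle library labelled knockout replicate 1, a setting that raised the calls over all genes from 1039 to 1752. They were not checked in settings with fewer calls, such as 428 without the vehicle control replicate 2. Values in brackets are the difference after stimulation minus that in vehicle, on the log2 scale.

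Among interferon pathway and interferon-stimulated genes the difference was more positive after stimulation for Tlr3 (1.54), Irf5 (0.43), Ifih1 (0.70), Stat2 (0.90), Ifit2 (0.65), Isg20 (0.74), Cd69 (1.04), Gbp9 (1.10) and Slfn8 (0.79), and more negative for Socs3 (-0.80). Among genes of antigen presentation and inflammasomes it was more positive for H2-Q6 (0.88), Cd86 (0.77) and P2rx7 (0.99). Among cytokines, chemokines and their antagonists it was more positive for Il1rn (0.46), Il27 (0.96), Il12b (0.87) and Tnfsf10 (2.66), and more negative for Il1b (-1.17), Il1f9 (-3.36), Cxcl3 (-1.91) and Ccl9 (-1.20). Among receptors, regulators and enzymes of the LPS response it was more positive for Nos2 (1.01), Cd180 (1.14) and Tnfaip3 (0.85), and more negative for Cd14 (-1.28), Batf3 (-2.00), Arg2 (-0.99), Ptges (-0.48), Acod1 (-0.46), Gpr84 (-1.89), S100a8 (-1.18) and Lyz2 (-0.76). Among lipid genes it was more positive for Mgll (1.16), Cpt1a (1.15), Plin2 (1.13) and Angptl4 (3.37), and more negative for Olr1 (-1.22), Lpl (-0.55), Echs1 (-0.69), Fdps (-0.65), Mvd (-0.45) and Pmvk (-0.84).

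Among antioxidant genes it was more negative for Slc7a11 (-1.03), Gpx1 (-0.56) and Hmox1 (-0.53). Among genes of glycolysis and the hypoxia response it was more positive for Hk3 (0.64), Pfkfb3 (0.84) and P4ha1 (0.96). Among complement, matrix and dying-cell receptor genes it was more positive for C3 (1.08), C3ar1 (0.77), Axl (1.93), Mertk (1.13) and Thbs1 (1.27). Of the remaining genes it was more positive for Adra1a (1.83), Dio2 (1.63), St3gal5 (1.75), Clic5 (1.06) and Actb (0.82), and more negative for Tmem154 (-2.03). Tnfsf10 and Il1f9 stood under 1 CPM in vehicle, so the size of their interaction rests on few counts.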

How the results depend on the processing

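After stimulation, scaling, filter, test and dispersion settings moved the 3811 calls by less than 1.5 times, and leaving out 1 library gave 2745 to 4232 calls (1559 to 2295 higher, 1186 to 1937 lower). The fit of all 12 libraries gave 2081, with 1293 higher and 788 lower; the cause was not tested. Of 113 named and called genes, 104 kept their call in all 15 alternative settings, 9 lost it in at least 1, and 0 reversed. Many of these genes were named for a small p or a large difference, so this share does not describe all 3811 calls.

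Vehicle calls moved more. They were 402 (224 higher, 178 lower) without a filter, 382 (207 and 175) with DESeq2, 374 (204 higher) after length adjustment, 491 (273 and 218) in the 12-library fit and, leaving out 1 library, 66 to 963 (23 to 534 higher, 42 to 429 lower). Calls of the interaction were 1875 (1087 and 788) without a filter, 388 higher and 788 lower with total-count scaling, 656 lower with DESeq2, and 428 to 1962 (276 to 1023 higher, 152 to 939 lower) leaving out 1 library, with 1962 without the vehicle library labelled knockout replicate 3. The causes were not tested.

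No pairing by replicate number was seen in the stimulated libraries. Deviations of same-numbered libraries correlated at -0.123, -0.102 and -0.008, and 0 of the 3 control libraries correlated best with its own number. With 3 libraries a group these correlations cannot exclude a pairing. With the replicate block, 3054 genes were called after stimulation (1774 higher, 1280 lower), 96 in vehicle (43 and 53) and 514 for the interaction (330 and 184). The block also took the calls of Ticam2, Cxcl10, Dusp1 and Ctsb.

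With 20072758 to 21872324 counts a library, Ifnb1 rested on 7 to 40 counts, Il10 on 2 to 5, and Sort1 and Rab4a stood near 1 CPM or below in the labelled knockouts.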

Other observations

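Sugar metabolism and cell death genes went in both directions after stimulation. Of 38 genes of glycolysis and the hypoxia response, 11 were higher and 9 lower in the labelled knockouts, and 9 and 5 in the 12-library fit. Hk3, a hexokinase, had 1209, 1204 and 1192 CPM in controls and 1956, 2001 and 1928 CPM in the labelled knockouts (log2 difference 0.71 ± 0.05, SE, n = 3 per group). Pfkfb3, which makes the activator of phosphofructokinase, differed by 0.96 ± 0.07 and the collagen prolyl hydroxylase gene P4ha1 by 0.79 ± 0.05. Ldha, lactate dehydrogenase, was lower, with 408, 478 and 449 CPM against 302, 290.0 and 319 CPM (-0.55 ± 0.06, edgeR adjusted p = 2.23e-06). In the TCA cycle list 10 of 27 were lower and 2 higher (5 and 0 in the 12-library fit), and Idh1, the cytosolic isocitrate dehydrogenase, fell by 0.73 ± 0.08. Of 25 BCL2 family and cell death genes 10 were higher and 5 lower, with 6 higher without control replicate 3 and 6 higher and 1 lower in the 12-library fit. Clic5, a chloride channel family gene, had 64.8, 59.1 and 59.2 CPM against 175, 175 and 188 CPM (1.56 ± 0.06).

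Some genes were higher in the labelled knockouts with or without stimulation, with no interaction called. C1qa, a chain of complement C1q, differed by 0.74 ± 0.07 after stimulation and 0.79 in vehicle, and Depp1 by 1.66 ± 0.14 and 1.71. Mmp8, the neutrophil collagenase, stood at 16.6 CPM in vehicle controls and 43.8 CPM in vehicle labelled knockouts (1.41, edgeR adjusted p = 8.10e-04). Pparg itself was higher in the vehicle libraries labelled knockout, at 99.6 CPM against 62.3 CPM (0.68, edgeR adjusted p = 0.0112).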
